A study of Drosophila melanogaster with 28 samples.

Results

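Of 1295 HMR regions on the arms of 2L, 3L and 3R, 186 (14.4%) lay more than 500 bp from every annotated transcript start, and these 186 regions are described here. They were selected on the anti-FLAG ChIP-seq peak lists themselves. Peaks that shared 1 bp or more between or within the 10 lists were merged, which gave 4724 regions, and 2299 of these were called in at least 5 lists. The arms were taken as 2L below 21 Mb, 3L below 22 Mb and 3R from 4.1 Mb, so that pericentromeric heterochromatin was left out. Distance was measured from the nearer edge of the region to the start of any annotated transcript other than that of a transposable element. The remaining 1109 arm regions lay within 500 bp of a start and serve for comparison.

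The libraries came from SL2 cells, a line derived from Drosophila embryos, stably transfected with an Hmr construct that carries a FLAG-HA tag, is driven by the metallothionein promoter (pMT) and was induced with 250 µM CuSO4. HMR-dC cells express a C-terminally truncated protein and HMR-FL cells the full-length protein, in both cases together with Myc-LHR according to the study's methods and beside the endogenous Hmr gene, which all cells keep. Anti-FLAG recovers only the ectopic protein (5 libraries of HMR-dC cells and 5 of HMR-FL cells), whereas anti-HMR recovers endogenous and ectopic HMR together (4 and 4), and its libraries share their chromatin with 8 anti-FLAG libraries. Replicate numbers do not always match between the antibodies. In both genotypes anti-HMR replicate 3 shares chromatin with anti-FLAG replicate 4, and anti-HMR replicate 4 with anti-FLAG replicate 3. No group lacked a transgene, both genotypes received copper, and the labels do not say whether a line is 1 clone. The anti-FLAG replicates are described as biological in the study's legends, and for anti-HMR, on which the tests rest, separate cultures are not stated in the labels, so p-values measure only the spread between these libraries. The lists give positions and no score or read count, and the depth in reads is unknown. They held 1093 to 3096 peaks for HMR-dC and 465 to 4427 for HMR-FL with anti-FLAG, and 1640 to 3184 for HMR-dC and 1150 to 9049 for HMR-FL with anti-HMR. The anti-FLAG HMR-FL library of 465 peaks (replicate 2) stands apart, and results that rest on it are also given without it. All coordinates are dm6.

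HMR (Hybrid male rescue) is a DNA-associated protein with MADF domains that binds LHR and HP1a, and is best known for its accumulation near centromeres and its part in the lethality of hybrid males. On the chromosome arms, the study describes it at sites associated with gypsy insulators. Insulator proteins, among them BEAF-32, bind short DNA motifs and separate chromatin domains. BEAF-32 and DREF recognise CGATA-type motifs that are frequent at the starts of housekeeping genes, whereas CTCF and Su(Hw) often bind away from starts, in introns and between genes, for example at the boundaries of the Hox complexes.

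The sequences set the 186 regions apart from their surroundings and from the regions at starts. In windows of 200 bp around the region centre, read on both strands, 48 of 186 regions (25.8%) held AGNNGGCGC, the core of the Drosophila CTCF motif. Flanking windows of the same length, beginning 1 kb from the centre on each side, held it in 6 of 372 windows (1.61%), the regions at starts in 63 of 1109 (5.68%), and 1.74% of all 200 bp arm windows over 500 bp from a start did. The 63 matches inside the regions read AGATGGCGC in 30 cases and AGGTGGCGC in 20, and 12 regions held more than 1 match. The following 5 matches, shown because their regions were called in all 10 anti-FLAG lists and are described below, are printed on the strand of the motif with the 9 letters of the match in capitals.
Spn intron, chr3L:2531452-2531481: gcccaacaacAGGTGGCGCcagtggcaaaa
Tet intron, chr3L:2852032-2852061: gctggccgctAGATGGCGCaccatgtagaa
Near CadN, chr2L:17784789-17784818: tatgacacatAGGTGGCGCtgaagccaatt
Abd-B intron, chr3R:16969682-16969711: ttcgttcgctAGGTGGCGCtagtagaatta
CG10357 coding exon, chr3L:3616465-3616494: taatagtacaAGGTGGCGCtagtaaaatat

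A second set of words was chosen after the windows were compared, as the 6 words of 8 letters with the largest difference in share between regions and flanks that did not share 5 letters in a row with a word already taken. Their shares are therefore a description with no test. The first, AGATGGCG (31 of 186 regions, 16.7%, against 3 of 372 flanks, 0.806%), overlaps the CTCF core in its letters, and 30 of these 31 regions also held the core in their window. The word AAGCAGTG was held by 29 regions (15.6%), by 0 of 372 flanks and by 49 regions at starts (4.42%). It occurred in 0.531% of arm windows over 500 bp from a start. The following examples are from regions high in the lists, with the word in capitals.
Near bor, chr3R:16260575-16260604: atccactagacAAGCAGTGtaaactgcttt
Spn intron, chr3L:2531426-2531455: aaagttgttgtAAGCAGTGcaagcagtttt
Eaat2 intron, chr2L:740158-740187: ataactgcttgAAGCAGTGcaacgaaaatt
CG43980 intron, chr3L:21652996-21653025: gcaggttactgAAGCAGTGctagtgaaccg
The Spn region holds both the CTCF core and this word, and 4 of the 29 regions held AAGCAGTG more than once.

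The words ATTTTACA (29 regions, 15.6%, against 9 flanks, 2.42%) and ATGTAGAA (20 regions, 10.8%, against 1 flank, 0.269%) shared 9 regions. They were held by 4.42% and 1.89% of the regions at starts. The matches below come from regions called in all 10 lists, with the word in capitals.
Abd-B intron, chr3R:16969794-16969823: ggcgggaaaacATTTTACAttagcttcaat
Jupiter intron, chr3R:11613238-11613267: ccttcttttacATTTTACAtgtatttgaca
Tet intron, chr3L:2852043-2852072: gatggcgcaccATGTAGAAtgaatgtagaa
Near Osi1, chr3R:6170896-6170925: ggcacgcaataATGTAGAAtgtaataagtc
In the Tet intron the ATGTAGAA word began 3 letters after the CTCF core printed above, and the letters atgtagaa followed again within the same 30 bases. The other words of the 6, AAATTTAA (13.4% of regions, 4.03% of flanks) and AAAAGCTT (10.2% and 1.34%), are not shown.

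The core of the Su(Hw) motif, TGCATAC, was held by 13 regions (6.99%), by 8 flanks (2.15%) and by 30 regions at starts (2.71%). It is shown because the regions that held it were called by anti-HMR more often than the others, as given with the anti-HMR values. The 7 letters are in capitals.
Near CadN, chr2L:17784766-17784795: tgtcatacagtTGCATACaacagtttcaat
Wdr62 5' UTR, chr2L:1909807-1909836: acaaaatccacTGCATACtttagggctgac
pnt intron, chr3R:23331404-23331433: caaaaaacaatTGCATACcatggggaatac
Eip75B intron, chr3L:17988276-17988305: aaatatttcatTGCATACtttcgagcttga
A region could hold several patterns: 5 of the 13 with TGCATAC also held the CTCF core, among them those near CadN and in Eip75B.

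Motifs typical of gene starts were rarer in the 186 regions than at starts. Since distance to a start divides these sets, the difference is in part built in. TATCGATA, the DNA replication-related element bound by DREF, was held by 0 of 186 regions, by 153 of 1109 regions at starts (13.8%) and by 1 of 372 flanks. GGTCACACT, the letters of Motif 1 bound by M1BP, was held by 2 regions (1.08%) and by 136 regions at starts (12.3%). It was held by 0 of 372 flanks and 0.0621% of arm windows over 500 bp from a start. CGATA, the BEAF-32 unit that is also contained in TATCGATA, was held by 51 regions (27.4%), by 75 flanks (20.2%) and by 595 regions at starts (53.7%). GAGAG, bound by GAGA factor, stood in 9.14% of regions, 22.3% of flanks and 13.8% of regions at starts. GCCAT of Pho, whose reverse complement is contained in AGATGGCGC, was held by 39.8% of regions and 34.9% of flanks. The Pol III B box letters GTTCGANNC were held by 6 regions (3.23%), 1 of 372 flanks (0.269%), 3.07% of regions at starts and 1.3% of arm windows over 500 bp from a start. TGANTCA of AP-1 (2.15% of regions and 4.30% of flanks), TGATAA of GATA factors (11.3% and 12.9%) and the E-box CACGTG (2.15% and 2.69%) were each less frequent in regions than in flanks. The GC content of the windows was 38.1% ± 5.57 in the regions, 42.8% ± 9.60 in the flanks and 38.7% ± 5.98 at starts (SD over windows). A match gives letters in a window and does not show that a factor is bound there.

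**Figure D1:**
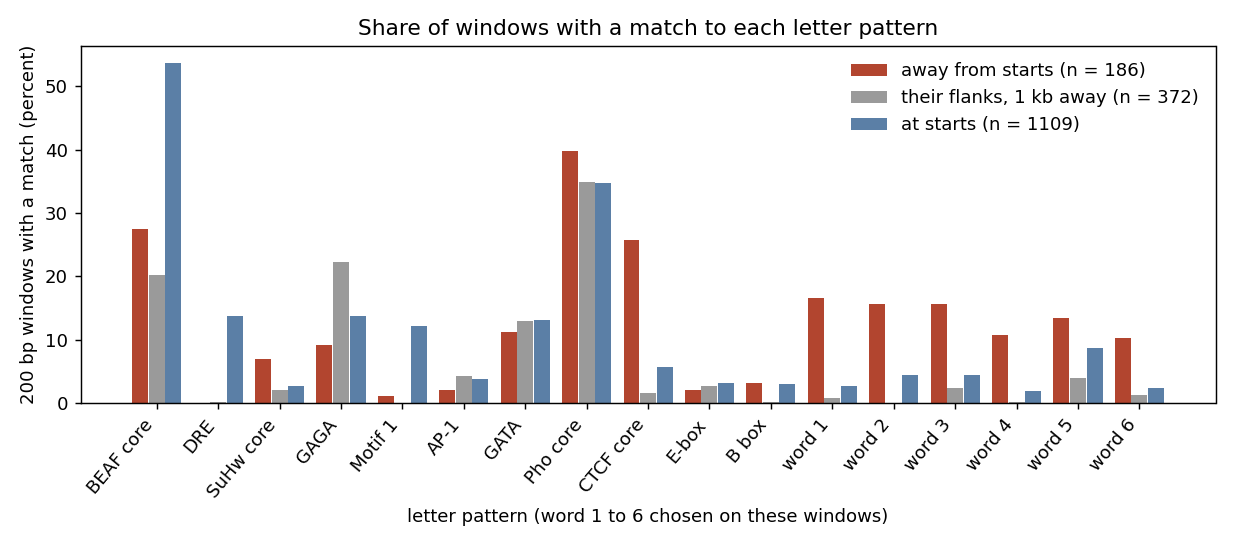
Percent of 200 bp windows with a match to each letter pattern, for the 186 regions away from starts, their 372 flanks and the 1109 regions at starts. The CTCF core is at 25.8% in the regions against 1.61% in the flanks, while DRE and Motif 1 are high only in the bars for regions at starts (13.8% and 12.3%).

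The CTCF core, which is from the motif list, was densest at the region centres. Of the CTCF cores within 500 bp of a centre, 41 lay within 50 bp, 22 from 50 to 100 bp, 7 from 100 to 250 bp and 14 from 250 to 500 bp. CGATA had 37, 23, 67 and 114 matches in the same bins, which is 37, 23, 22.3 and 22.8 per 100 bp of bin, and TGCATAC 8, 5, 11 and 21, which is 8, 5, 3.67 and 4.2 per 100 bp. AAGCAGTG had 26, 8, 4 and 1 matches and ATGTAGAA 12, 10, 5 and 2, but these words were chosen for their excess in the central windows, so that their place near the centre follows from the choice. At least 1 of the CTCF core, the Su(Hw) core and the 6 words was present in 122 of 186 regions (65.6%), 44 of 372 flanks (11.8%) and 297 regions at starts (26.8%). Since the words were chosen on these regions and flanks, the difference between the shares is in part built in. The remaining 64 regions held none of them, and they include the regions near CG14082 and CG5895.

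**Figure D2:**
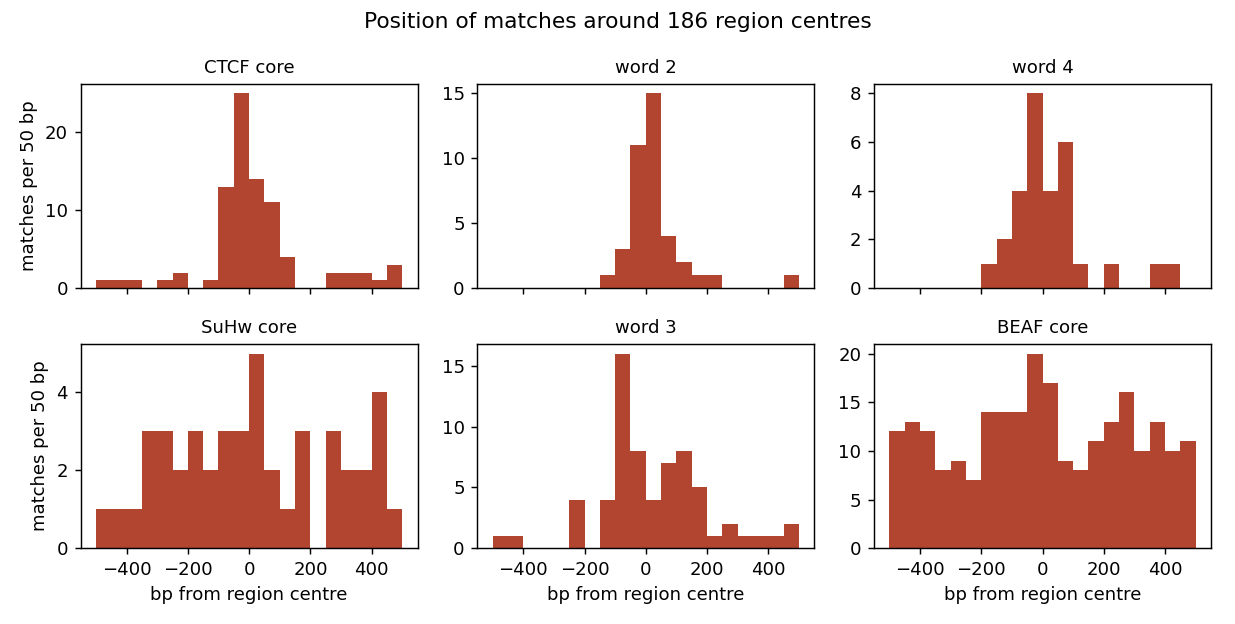
Matches per 50 bp around the 186 region centres, with the distance in bp on the horizontal axis, for 6 letter patterns. The CTCF core has 41 matches within 50 bp of the centre and 14 from 250 to 500 bp. The BEAF core has 37 and 114, which is 37 and 22.8 per 100 bp of bin. Words 2, 3 and 4 were chosen on the central windows, which fixes their place.

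Between genes lay 107 of the 186 regions by their midpoint base (57.5%, Wilson 95% interval 50.3 to 64.4), and 56 lay in introns (30.1%, 24.0 to 37.0). Another 13 lay in 3' UTRs (6.99%, or 14.0% where any overlap of the region with a 3' UTR counts), 7 in coding exons (3.76%), 2 in other exons (1.08%) and 1 in a 5' UTR (0.538%). Of the arm bases over 500 bp from every start, 28.8% are intergenic, 45.3% intronic, 18.5% coding, 5.48% 3' UTR and 0.781% 5' UTR. The density was thus 6.17 regions per Mb between genes, 2.06 per Mb in introns, 3.95 per Mb in 3' UTRs and 0.630 per Mb in coding exons. The CTCF core was held by 20 of 56 intronic regions (35.7%), 25 of 107 intergenic regions (23.4%), 2 of 7 regions in coding exons and 0 of 13 regions in 3' UTRs, and these counts were not tested.

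**Figure D3:**
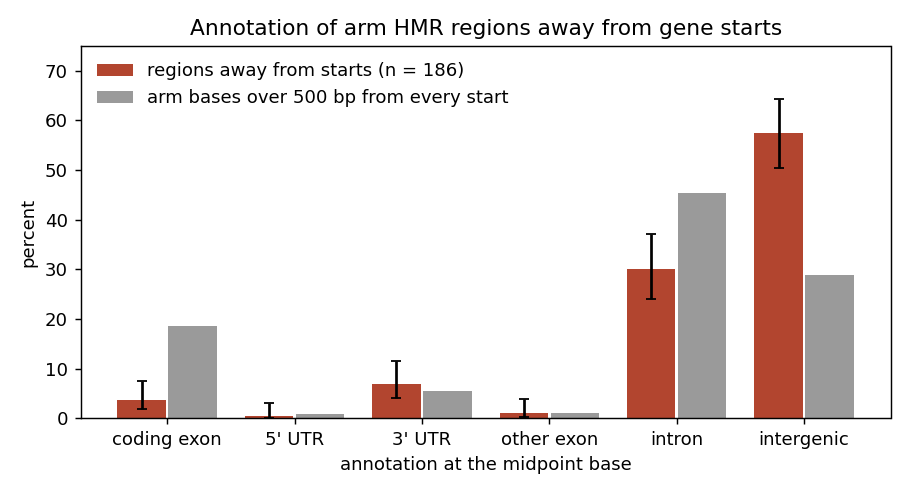
Percent of the 186 regions in each annotation class at the midpoint base (bars with Wilson 95% intervals) beside the percent of arm bases over 500 bp from every start in that class. Intergenic regions take 57.5% against 28.8% of the bases, and coding exons 3.76% against 18.5%.

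The regions were spread evenly over the arms, with 57 on 2L (2.71 per Mb), 57 on 3L (2.59 per Mb) and 72 on 3R (2.57 per Mb). Regions at starts numbered 15.3 to 15.8 per Mb on the same arms. The distance to the nearest start had a median of 2193 bp and ranged from 502 to 27033 bp, the largest being that of the Tet intron. It exceeded 1000 bp for 144 regions, 5000 bp for 44 and 10000 bp for 15. The regions nearest to the threshold were 502 bp from Fer3, 512 bp from Gnf1 and 517 bp from cpo, and the nearest excluded ones with a named gene were 483 bp from Rh5 and 478 bp from nrv2. With regard to the other threshold, 23 regions were called in exactly 5 lists, and 26 further arm regions away from starts in exactly 4. Most regions stood alone: only 4 lay within 5000 bp of another of the 186 from midpoint to midpoint, and these were a pair in the 3' UTR of lwr and a pair in Antp. The nearest arm region of any kind was at a median distance of 27308 bp between midpoints. An annotated transposable element was overlapped by 3 of the 186 regions and by 15 of the 1109 at starts. Where the starts of transposable elements were counted as starts too, 169 regions away from starts remained.

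The host genes were long. The 79 regions inside gene bodies lay in 76 annotated genes with a median length of 27.9 kb, whereas the median protein-coding gene of the arms is 2.10 kb long. A longer gene offers more bases in which a region can lie, and whether the lengths exceed this was not tested. Of 8469 protein-coding genes of the arms, 72 (0.85%) had a region away from starts in their body, and of the 1120 genes of at least 10 kb, 51 (4.55%) had one. The gene sick, which acts in the actin cytoskeleton and in axon growth, held 3 regions over 162 kb, the largest number. They lay at chr2L:19887558-19887812 (called in 10 anti-FLAG lists), chr2L:19915314-19915522 (9 lists) and chr2L:19817190-19817432 (9 lists, with a CTCF core). A further 7 genes held 2 regions each, namely Abd-B, Antp, CG46458, Eip75B, SNF4Agamma, lncRNA:iab8 and lwr, of which CG46458 overlaps Antp.

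Among the gene lists used here, the Hox genes had regions in 3 of 8 members (37.5%), with a median gene length of 30.6 kb. These were proboscipedia (pb), Antennapedia (Antp, 2 regions) and Abdominal-B (Abd-B, 2 regions), all encoding homeodomain factors of segment identity. Between the outer genes of the Antennapedia complex (338 kb) there were 6 regions away from starts and 1 at a start, and within the Bithorax complex (316 kb) 5 and 0. That is 17.8 and 15.8 regions away from starts per Mb, against 2.57 per Mb on 3R as a whole. The CTCF core was held by 1 of the 6 and 3 of the 5 regions. Ecdysone response genes had regions in 2 of 9 members on the arms, Eip74EF and Eip75B (2 regions), which encode an ETS factor and a nuclear receptor induced by the steroid ecdysone. Wnt4, a secreted ligand, was 1 of 11 Wnt and Hedgehog pathway genes and CadN, the neuronal cadherin, 1 of 9 genes of cytoskeleton and adhesion. Median gene lengths were 50.7 kb for ecdysone response, 13.7 kb for Wnt and Hedgehog and 29.4 kb for cytoskeleton and adhesion. Of all protein-coding genes of at least 10 kb, 4.55% had a region. The lists of JNK and AP-1 (7 genes on the arms), Toll and IMD immunity (12), hemocyte (19), Notch (9), insulator and architecture protein (11) and Polycomb and Trithorax genes (12) had 0 members with such a region. These lists had shorter genes than the Hox list, with medians from 3.66 kb (insulator and architecture proteins) to 14.2 kb (hemocyte genes) and a longer one for JNK and AP-1, and the part of gene length in the counts was not tested.

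The position of a peak in its list was used as a measure of its place among the peaks, because the lists ordered the regions they shared similarly (median Spearman's rho 0.841 over 45 pairs of anti-FLAG lists, across regions). What the order stands for is not stated with the lists. The values that follow are part of what selected the regions and are given as a description. The region nearest to the top lay between genes at chr3R:16260449-16260686, 3409 bp from the start of bor, which encodes an AAA ATPase. It was on lines 4, 5, 3, 11 and 7 of the HMR-dC lists and on lines 11, 9, 9, 11 and 13 of the HMR-FL lists. The region in the intron of Spn (Spinophilin, a scaffold of protein phosphatase 1) at chr3L:2531404-2531655 stood on lines 9, 13, 9, 12 and 8 of the HMR-dC lists and 31, 22, 15, 12 and 20 of the HMR-FL lists. Both regions were thus among the first lines in every list of either genotype, and both hold AAGCAGTG.

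The coding exon of klar, which links nuclei to microtubule motors, held the region chr3L:506090-506311 on lines 18, 24, 18, 8 and 16 of the HMR-dC lists and 34, 23, 16, 9 and 65 of the HMR-FL lists. The other regions among the 10 highest of those called in all 10 lists lay 1427 bp from CG14082 (chr3L:19140402-19140672), 1484 bp from CG5895, 813 bp from lncRNA:CR44415, 1519 bp from CG33777, in an intron of bun, which encodes a TSC-22 family protein, 5274 bp from Jhbp1 and in an intron of pb. In all, 35 of the 186 regions (18.8%) and 162 of the 1109 regions at starts (14.6%) were called in all 10 lists. Both counts are limited by HMR-FL replicate 2, which called 20.4% of the 186 regions and 15.9% of those at starts.

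The 3' UTR class was led in list position by a pair in lwr, which encodes the SUMO-conjugating enzyme Ubc9, at chr2L:540978-541209 (8 lists) and chr2L:540549-540767 (5 lists). Each of the 10 lists held at least 1 region of this pair, on lines 8 to 54. Whether the pair is 1 site was not tested. Of those in at least 9 lists, the 3' UTR regions in Ptp61F, a tyrosine phosphatase gene, where it overlaps CG9166 (chr3L:1352083-1352414), and in Antp where it overlaps CG46458 (chr3R:6908123-6908372) stood highest. The intron class was led by Spn and by CR42490 (chr2L:18665992-18666234, 9 lists). After klar, the coding region of CG10357 (chr3L:3616416-3616668) came next. The only 5' UTR region was that of Wdr62, a spindle protein, at chr2L:1909803-1910011.

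The regions in the listed genes are given next, and those in pb and the 3' UTR of Antp are given above. The Abd-B intron with the CTCF core (chr3R:16969623-16969909) was on lines 184, 171, 116, 136 and 180 of the HMR-dC lists and 343, 179, 244, 243 and 395 of the HMR-FL lists, with only HMR-FL replicate 2 of 465 peaks inside the HMR-dC range. The Eip74EF intron (chr3L:17596938-17597259), 20312 bp from the nearest start and with a CTCF core, was on lines 460, 469, 437, 390 and 178 of the HMR-dC lists and 865, 616, 532 and 444 of the 4 HMR-FL lists that held it. In Eip74EF the ranges of the genotypes overlap.

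The CadN intron (chr2L:17715927-17716148) was called by 2 HMR-dC libraries, on lines 2681 and 2363, and by 4 HMR-FL libraries, on lines 799, 853, 565 and 382. Anti-HMR called it in 0 of 4 HMR-dC and 3 of 4 HMR-FL libraries, which is 1 library short of a complete split. The Wnt4 intron (chr2L:7258181-7258408), with a CTCF core, was in 5 HMR-dC and 4 HMR-FL anti-FLAG lists but in 1 of 4 anti-HMR lists of either genotype. Of the pair in Eip75B, the region with the Su(Hw) core (chr3L:17988126-17988434) was in 3 of 4 and 4 of 4 anti-HMR lists of HMR-dC and HMR-FL cells, and the other (chr3L:18019668-18019933) in 1 of 4 and 1 of 4. The second Abd-B region (chr3R:16957843-16958069) was in 2 of 4 and 1 of 4, and the Antp intron (chr3R:6912235-6912488), with a CTCF core, in 3 of 4 and 4 of 4. Regions of 1 gene thus differed in their anti-HMR calls, and these values are given without a test.

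With anti-FLAG, the genotypes called overlapping shares of the 186 regions. The HMR-dC libraries called 98.9, 78.5, 85.5, 90.3 and 50% of them, and the HMR-FL libraries 87.6, 20.4, 95.2, 99.5 and 95.2%. The ranges overlap, and the lowest value of each genotype belongs to its shortest list (1093 peaks for HMR-dC and 465 for HMR-FL). Regions called in at least 3 more HMR-FL than HMR-dC libraries numbered 10 of 186 (5.38%). This difference was found in 4.7% of all 2299 regions in at least 5 lists, which include regions off these arms, and in 29 of the 1109 regions at starts (2.61%). All 10 were called in 1 HMR-dC and 4 HMR-FL libraries. The 5 highest of them in the lists lay in an intron of ova (chr2L:10230536-10230921), which acts in the female germline, 8113 bp from CG15631, 589 bp from CG7509, 3727 bp from lncRNA:CR42839 and 8623 bp from CG31262. In each of these the HMR-dC library that called it was replicate 1, and the HMR-FL library that did not was replicate 2 with its 465 peaks. A difference of at least 2 libraries towards HMR-dC occurred in 5 regions (2.69%), with 2.44% of the 2299 as background and 2.34% of the regions at starts. They lay in introns of tara, a transcriptional regulator of the Trithorax group, and of the ABC transporter gene snu, in a coding exon of CG10311, 3294 bp from CG18747 and 3229 bp from eya, a developmental coactivator and phosphatase. HMR-FL replicate 2 called none of these 5 regions either.

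A finer view was given by the order of the 1005 regions that all lists but that of HMR-FL replicate 2 held, 88 of which were among the 186. This measure was chosen after seeing the data. In 12 of the 88 (13.6%) every HMR-dC library (5) placed the region further down than every HMR-FL library (4), with 10.5% of the 1005 as background, and in 7 (7.95%) further up, with 10.8% as background. The largest difference was found 1606 bp from lncRNA:CR45297 (chr2L:4810089-4810339), which ranked 779, 708, 752, 621 and 593 of 1005 in HMR-dC libraries and 139, 268, 195 and 65 in HMR-FL libraries. The region near CadN (chr2L:17784697-17784925), with its CTCF and Su(Hw) cores, ranked 296, 341, 351, 420 and 299 in HMR-dC libraries and 48, 97, 133 and 42 in HMR-FL libraries. The pb intron, at 108 to 240 in HMR-dC and 20 to 58 in HMR-FL libraries, was also further down in HMR-dC. In all 3 the ranks of the genotypes do not overlap.

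The opposite order was largest 728 bp from CG33299 (chr2L:9657328-9657562), with ranks 349, 513, 374, 585 and 451 in HMR-dC libraries and 660, 735, 893 and 863 in HMR-FL libraries. The region 4375 bp from Wnt4 (chr2L:7281546-7281752) ranked 256, 285, 255, 293 and 271 in HMR-dC libraries and 442, 485, 462 and 422 in HMR-FL libraries. The Abd-B intron with the CTCF core printed above ranked 113 to 177 in HMR-dC and 215 to 311 in HMR-FL libraries, and so stood further up in HMR-dC. Over the 88 regions the difference in mean rank had a median of -0.935% of the order.

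The anti-HMR lists were not used for the selection and allow tests. The HMR-dC libraries called 90.9, 49.5, 32.3 and 74.2% of the 186 regions and the HMR-FL libraries 76.3, 32.8, 95.2 and 62.4%. Set side by side in this order, the HMR-dC share was higher in replicates 1, 2 and 4. In replicate 3 it was lower, at 32.3% against 95.2%. The means were 61.7% ± 26.0 for HMR-dC and 66.7% ± 26.3 for HMR-FL (SD, n = 4 each), and the difference of -4.97 percentage points was smaller than either SD (two-sided exact permutation of genotypes, p = 0.771, and 1 after Benjamini-Hochberg adjustment over the 4 anti-HMR comparisons). The smallest p that 4 against 4 libraries allow is 0.0286. The difference has the opposite sign, at 4.53 percentage points, without HMR-FL replicate 3, the library of 9049 peaks, and 4.84 without HMR-dC replicate 3. For single regions, Fisher's exact test on the 4 against 4 libraries gave an unadjusted p under 0.05 for 0 of the 186 regions and for 0% of all 4724 regions, in either direction, and hence 0 after adjustment. Only a region called by all 4 libraries of 1 genotype and by none of the other can pass this test, so it cannot decide on smaller differences.

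Anti-HMR recovered the regions away from starts more often than those at starts. The regions at starts were called at 87.8, 35.8, 22.2 and 55.2% by the HMR-dC libraries and at 72.0, 15.5, 93.3 and 39.9% by the HMR-FL libraries, each below the value of the 186 regions in the same library. The difference was 11.5 percentage points on average (higher in 8 of 8 libraries, exact two-sided sign-flip permutation test, p = 0.00781, adjusted p = 0.0312), and p = 0.00781 is the smallest the design allows. It ranged from 1.83 percentage points in the longest list, where both classes are close to complete, to 22.4 in HMR-FL replicate 4. The mean difference was 11.4 percentage points in HMR-dC and 11.5 in HMR-FL libraries, and the genotypes differed by -0.0362 (exact permutation test, p = 1, n = 4 each). In the anti-FLAG lists, which selected both classes, the same difference lay between -5.35 and 7.03 percentage points.

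The number of anti-FLAG lists that held a region moved with this result. Among regions in exactly 5 anti-FLAG lists, anti-HMR called 44.6% of those away from starts and 27.7% of those at starts on average, and among regions in 8 lists 62.5 and 50.5%. Among regions in all 10 lists the values were 88.6 and 85.3%, a difference of 3.23 percentage points (higher in 4 of 8 libraries, exact sign-flip permutation test, p = 0.477). In this stratum the difference did not pass the test. The stratum requires a call by the anti-FLAG list of HMR-FL replicate 2 with its 465 peaks, and it was not tested without that list. Position in the anti-FLAG lists also differed. The median position away from starts averaged 38.9% in HMR-dC and 32.7% in HMR-FL lists, against 40.6% and 38.2% at starts. HMR-FL replicate 2 had 22.8% against 39.2%. In HMR-dC replicates 1 and 4 and HMR-FL replicate 4 the regions at starts stood nearer the top. The part of anti-FLAG position in the anti-HMR difference was not tested.

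**Figure D4:**
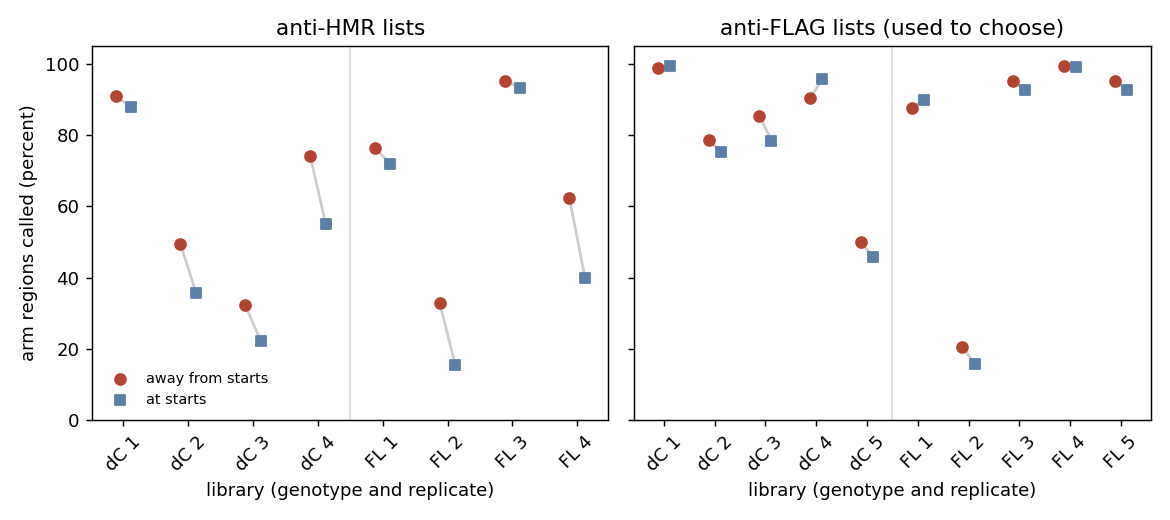
Percent of the 186 regions away from starts (circles) and of the 1109 regions at starts (squares) called by each library, anti-HMR on the left and anti-FLAG on the right, HMR-dC before HMR-FL. In each of the 8 anti-HMR libraries the circle is above the square, by 1.83 to 22.4 percentage points.

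**Figure D5:**
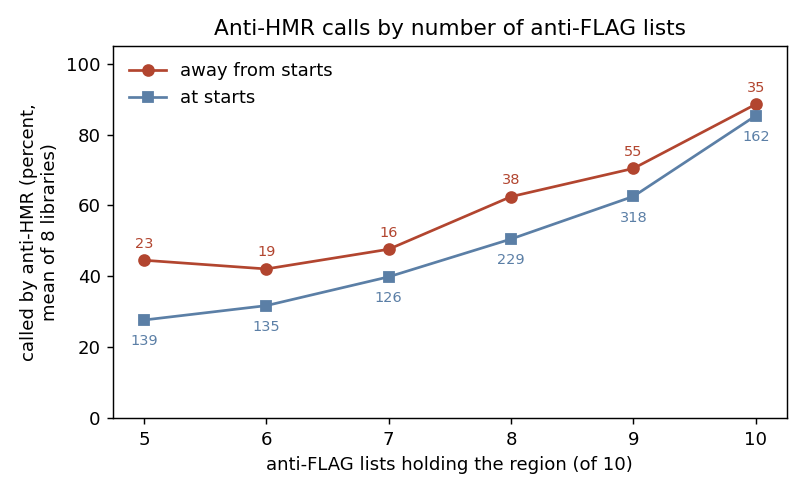
Percent of regions called by anti-HMR (mean of 8 libraries) against the number of anti-FLAG lists that held the region, with the number of regions beside each point. Regions away from starts lie above those at starts in each bin, by 16.9 percentage points in 5 lists and 3.23 in 10 lists.

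Anti-HMR called 61.2% of the intronic and 65.2% of the intergenic regions on average. The difference of -4.03 percentage points had the same direction in 6 of 8 libraries (exact sign-flip permutation test, p = 0.0469) and did not pass the adjustment (adjusted p = 0.0938). Among regions more than 1000 bp from a start it was 0.726 percentage points (exact sign-flip permutation test, p = 0.578).

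Individual regions ranged over the whole scale of anti-HMR recovery. All 8 anti-HMR lists held 36 of the 186 regions (19.4%), where 11% of the 2299 regions in at least 5 anti-FLAG lists and 7.3% of those at starts were so called. The highest in the anti-FLAG lists were the Spn intron, the regions near CG14082 and CG33777, the bun intron and a region 3054 bp from CG12017 (chr3L:3276939-3277185). The CG12017 region stood on lines 14, 17, 89 and 32 of the anti-HMR lists of HMR-dC cells and 40, 48, 16 and 35 of those of HMR-FL cells. The place in the anti-HMR lists could be far from that in the anti-FLAG lists. A region 1493 bp from Loxl1 (chr3R:31458074-31458376), a lysyl oxidase gene, was on line 2 of each of the 8 anti-HMR lists, the highest of the 186. It holds a Su(Hw) core, and its CTCF core reads AGTAGGCGC, as 1 of the 63 matches did. Only 1 letter separates the CTCF letters from TGCATAC. Anti-FLAG called this region in 3 of 5 HMR-dC libraries, on lines 1085, 653 and 870. In HMR-FL it was called in 4 of 5 libraries, on lines 489, 456, 500 and 243. Next by mean line came a region in an intron of pnt (chr3R:23331375-23331599), an ETS factor of receptor tyrosine kinase signalling, with a Su(Hw) core. It stood on lines 11, 7, 22 and 22 for HMR-dC and 15, 20, 18 and 23 for HMR-FL with anti-HMR. With anti-FLAG it was called in 2 of 5 HMR-dC and 3 of 5 HMR-FL libraries only, on lines 214 to 899.

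No anti-HMR list held 5 of the 186 regions (2.69%), where 2.31% of the 2299 was the background and 1.53% of the regions at starts were so missed. The klar coding region was the first of these, although it stood on lines 8 to 65 of all 10 anti-FLAG lists. The others lay in the intron of ova (5 anti-FLAG lists), in an exon of lncRNA:CR43626 (7 lists), 1175 bp from zormin (9 lists) and in an intron of SNF4Agamma (5 lists), which encodes the gamma subunit of AMP-activated protein kinase. Their best lines in the anti-FLAG lists were 371 (ova), 821 (lncRNA:CR43626), 617 (zormin) and 1669 (SNF4Agamma), so that of the 5 only the klar region stood near the top.

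The letter patterns divided the anti-HMR calls unequally, which is given as a description over regions that share the same 8 libraries. The 13 regions with TGCATAC were called in 93.3% of the pairs of region and library and the other 173 in 62.0%. The median number of anti-FLAG lists was 8 in both, but the median position in the anti-FLAG lists was nearer the top with TGCATAC (32.7%) than without it (43.8%). In HMR-dC cells all 13 were called by 3 of the 4 libraries and 9 by replicate 3, which called 29.5% of the other regions. In HMR-FL cells 13, 11, 13 and 12 were called, against 74.6, 28.9, 94.8 and 60.1% of the other regions. The CTCF core made little difference, at 65.6% of pairs with it and 63.7% without it. Regions with AAGCAGTG were at 72.8 against 62.6%, and those with AAAAGCTT at 44.1 against 66.5%. These sets also differed in the anti-FLAG lists. The median was 9 lists at position 37.3% with AAGCAGTG, and 8 lists at 44.7% without it. With AAAAGCTT it was 8 lists at 59.2%, and without it 9 lists at 41.1%. The part of anti-FLAG position in these differences was not tested.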

How the data were processed

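The data are 18 peak lists, 1 per library (10 anti-FLAG and 8 anti-HMR), from a series of 28 samples whose 10 inputs have no list and were not analysed on their own. According to the study's methods, reads (single-end, 50 bp) were aligned by the authors with Bowtie2 (2.2.9) against dm6, filtered at mapping quality 2 with SAMtools (1.3.1), and used to call peaks against input per replicate with HOMER (4.9) in factor mode, with a peak size of 200 bp and -F 2. This filter removes many reads that map to repeats. The deposited lists hold positions and no signal, count or score, and 1 peak is not 200 bp wide. Anti-FLAG replicate 5 of each genotype was prepared with the NEBNext kit, the other libraries with the Microplex kit.

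Peaks were joined, placed on the annotation of Ensembl release 115 (BDGP6, the coordinates of dm6) and read on the RefSeq Release 6 sequence. A midpoint base covered by several classes was given the first of coding exon, 5' UTR, 3' UTR, other exon, intron and intergenic. The regions, gene lists and tests were chosen with earlier results of these data known. The 11 motifs and the rule for naming regions were part of that choice: the 10 highest of those in all 10 anti-FLAG lists, the 2 highest of each class with at least 3 regions (among those in at least 9 lists), the 5 largest differences between genotypes in each direction, 5 regions in all and 5 in no anti-HMR list, regions in listed genes, and genes with at least 3 regions, and those nearest to the thresholds. Other regions named with their sequences or ranks were chosen after their values were seen.

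Anti-HMR shares were compared by exact permutation tests over libraries (70 assignments for 4 against 4, 256 sign changes for 8 pairs) with Benjamini-Hochberg adjustment over the 4 comparisons, and single regions by Fisher's exact test adjusted over 4724 regions. The functions were tested on simulated lists. Intervals cover counting error only. The alternatives were other list, distance and overlap thresholds, other sets of starts, wider motif windows, lists of equal length, mean ranks in place of means and each library left out. Python 3.11.15, numpy 2.4.6, scipy 1.17.1 and matplotlib were used.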

Additional observations from a re-analysis of the deposited data

Results flagged for a closer look

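Among the 4 groups of libraries and 7 measures examined for a library far from the others of its group, the anti-FLAG HMR-FL library of 465 peaks (replicate 2) was set apart in 4 measures, which share the same peaks. It called 20.4% of the 186 regions, 15.9% of the regions at starts, 17.9% of the intronic and 21.5% of the intergenic regions away from starts, against 87.6% or more of the 186 in the other HMR-FL libraries. The rule for a gap is set to pass about 1 of 20 groups by chance, which is its nominal rate and was not measured on these data.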

How the results depend on the processing

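The number of regions stayed within 1.5 times of 186 in all 19 alternatives, from 128 with at least 8 lists to 237 with at least 3, and from 164 to 186 without single anti-FLAG libraries. It was 213 without the shortest list and at least 4 of 9, which was chosen after seeing the data. The anti-HMR difference between HMR-dC and HMR-FL was -16.3 to 4.84 percentage points without single libraries and did not pass the test in any of its 15 alternatives (p 0.4 to 0.914). The genotypes' difference in the gap between regions away from and at starts was -3.25 to 3.61 without single libraries, 0.0297 with an overlap of 100 bp, 0.482 for regions over 1000 bp from a start and 0.514 with distance from the midpoint. The gap itself was 9.90 to 12.8 without single libraries (p = 0.0156, exact sign-flip permutation tests). It missed the threshold at 11.4 in HMR-dC and 11.5 in HMR-FL libraries alone (p = 0.125 each, the smallest that 4 libraries allow in this exact test), and at 3.23 among regions in all 10 lists. The difference of intronic minus intergenic regions was -4.81 to -2.42 without single libraries, -1.28 with lists of equal length, -3.18 with an overlap of 100 bp, -3.77 with at least 8 lists, -1.77 with at least 3 and 0.726 over 1000 bp from a start, and its unadjusted p was above the threshold of 0.05 in 10 alternatives that kept the sign. Regions touching a 3' UTR at any base made up 14.0%. With windows reaching 150 bp to each side of the centre, the shares were 34.4% for CGATA, 15.1% for GAGAG, 6.99% for TGANTCA, 17.2% for TGATAA, 49.5% for GCCAT and 19.4% for AAATTTAA, and the window was larger by construction. The causes of the other changes were not tested. The depth in reads is unknown, so that a region missing from a list cannot be told apart from one below the calling threshold. No paired analysis was possible by replicate number because the labels give no replicate numbers shared between the genotypes, and the numbers used here follow the order of the samples. Libraries of the same antibody and number have chromatin names that lie close together between the genotypes. Whether these names mark pairs is not stated, and a difference paired by them was not tested.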
